A study of Homo sapiens with 4 samples.

Results

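Thyroid hormone signalling genes were examined in SK-N-AS, a long-established line of human neuroblastoma cells. The set was chosen by name, with earlier results of these data known. It comprised the hormone receptor genes THRA and THRB, their partner receptor genes RXRA and RXRB and the corepressor gene NCOR1. The others were the deiodinase genes DIO2 and DIO3 and the hormone-responsive gene KLF9. Of these 8 genes, 6 had a probe set in the platform annotation, each of them 1. The annotation names 17687 genes, and 21448 probe sets were tested in all. RXRA and NCOR1 were not analysed here. Cells were kept in IMDM medium with fetal bovine serum and received BG-P400-TAT at 30 µM for 48 h, or phosphate-buffered saline for the same time, called untreated here. Each group had 2 Affymetrix arrays, described as biological replicates; the labels do not say how the cultures were kept apart. By the series title, the compound has 2 targets, the transporter for norepinephrine and integrin αvβ3, a cell-surface binding site for thyroid hormone. All values below are log2 expression values, so a difference of 1 is a doubling.

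Thyroid hormone enters cells through membrane transporters and is activated or inactivated there by the deiodinases. Triiodothyronine binds the nuclear receptors, which sit on DNA mostly as heterodimers with a retinoid X receptor. Without hormone the receptors hold corepressor complexes built on NCOR proteins and the histone deacetylase HDAC3, and hormone exchanges these for coactivators. Hormone at integrin αvβ3 starts signals outside this nuclear route.

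The levels split the genes by whether they rose above the array's own background. This limit was the 95th percentile of 612 negative-control sets, whose median was 3.97 to 4.08 on the 4 arrays. The limit lay at 7.31 (replicate 1) and 7.64 (replicate 2) for untreated cells, and at 7.19 (replicate 1) and 7.25 (replicate 2) for treated cells. THRA and RXRB were above it on all 4 arrays, and THRB, DIO2, DIO3 and KLF9 were above it on none. At each array's own 99th percentile, none of the 6 was above on both untreated arrays, THRA and RXRB included. The untreated cells thus gave a signal above background for 2 of the 6 measured genes, 1 receptor and 1 partner receptor. Over all probe sets, 46.4% had a mean above the percentile of the averaged negative sets (6.96).

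**Figure D1:**
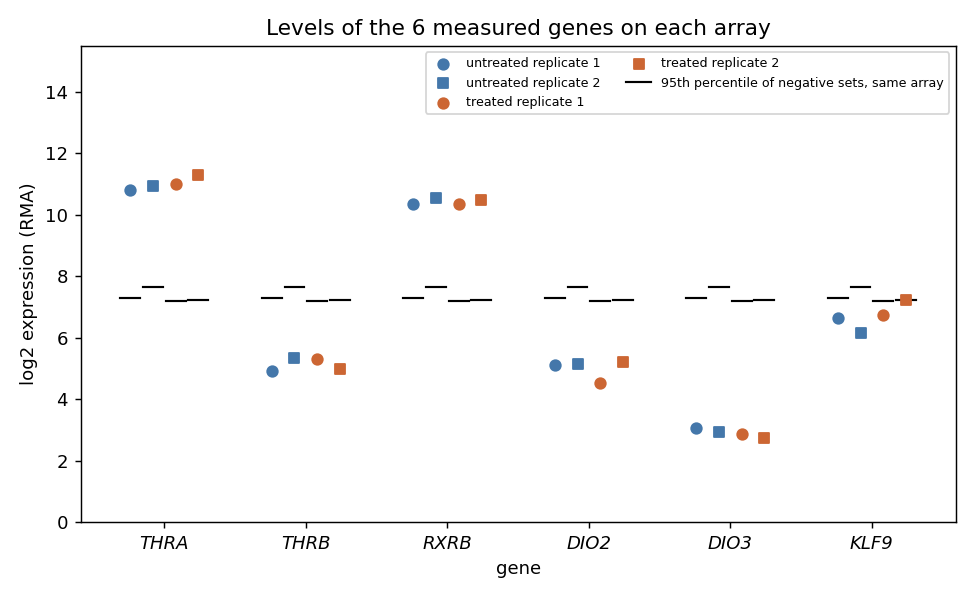
Log2 expression of the 6 measured genes (x axis) on each array, with circles for replicate 1, squares for replicate 2, blue for untreated and orange for treated cells. Black dashes mark the limit taken from each array's negative-control sets (their 95th percentile); THRA and RXRB lie above them on all 4 arrays, and KLF9 on treated replicate 2 (7.22) lies just under its dash (7.25).

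THRA encodes the thyroid hormone receptor alpha, of which one splice form binds hormone and another does not. A single probe set stands for the gene, so these forms were not separated. THRA read 10.80 (replicate 1) and 10.95 (replicate 2) in untreated cells, and 11.00 and 11.30 in treated cells. Values of further genes are given in the same order. Both treated arrays were higher than both untreated arrays, but treated replicate 1 exceeded untreated replicate 2 by only 0.05, less than the 0.15 between the untreated arrays and the 0.30 between the treated ones. The level of THRA exceeded the array limit by 3.31 to 4.05. The estimated difference between treated and untreated cells was 0.27 ± 0.20 (SE, n = 2 per group), with a 95% interval from -0.20 to 0.75, which corresponds to 0.868-fold to 1.68-fold. THRA did not pass the test (limma adjusted p = 0.954, unadjusted p = 0.218).

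THRB, which encodes the thyroid hormone receptor beta, read 4.94 and 5.35 in untreated and 5.31 and 4.98 in treated cells. The groups overlapped, and each value was 1.88 to 2.38 below the limit of its array. Between 73.0% and 77.3% of the negative-control sets read lower than THRB on the same array. The difference of these values was 0.0020 (interval -0.54 to 0.55, limma adjusted p = 1). As with every gene below the limit, it is a difference of values that the limit does not separate from background and is not read as a change.

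RXRB encodes the retinoid X receptor beta, one of the receptors that pair with THRA and THRB on DNA. Its values were 10.36 and 10.57 in untreated and 10.37 and 10.50 in treated cells. Both treated values fell between the untreated ones. RXRB differed by -0.032 ± 0.19 (SE, n = 2 per group), with an interval from -0.48 to 0.42 or 0.715-fold to 1.34-fold (limma adjusted p = 0.998). The interval leaves out a 1.5-fold increase as well as a 1.5-fold decrease. RXRG, the third retinoid X receptor gene, read 2.63 to 2.85 and was below the limit on all 4 arrays.

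The deiodinases remove iodine from thyroid hormone and carry selenocysteine at their active site. DIO2 makes the active triiodothyronine from thyroxine, and DIO3 inactivates both. DIO2 read 5.13 and 5.15 in untreated and 4.52 and 5.20 in treated cells. Treated replicate 1 alone was low, and the other 3 arrays lay within 0.07 of each other. Without treated replicate 1 the difference of -0.28 (interval -0.89 to 0.33, limma adjusted p = 0.966) became 0.058. DIO3 read 3.08 and 2.94 in untreated and 2.86 and 2.73 in treated cells. Here the groups did not overlap, with the treated arrays lower, but every value was 4.23 to 4.70 below the array limit and only 12.9% to 21.4% of the negative-control sets read lower still. The difference of DIO3 was -0.22 (interval -0.66 to 0.23, limma adjusted p = 0.963). DIO1, the liver and kidney deiodinase, was also below the limit on all 4 arrays, at 3.13 and 4.09 in untreated and 3.04 and 3.10 in treated cells. No deiodinase gene therefore gave a signal above background in these cells.

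KLF9 encodes a zinc finger factor that binds GC-rich promoter sites and is induced by triiodothyronine in several cell types. It read 6.66 and 6.16 in untreated cells, and 6.75 and 7.22 in treated cells. Both treated arrays were higher than both untreated arrays, by 0.10 at the least and 1.06 at the most. All 4 values were nevertheless below the array limit, by 0.66, 1.48, 0.44 and 0.02 in the same order, and 86.8% to 94.9% of the negative-control sets read lower. The difference of KLF9 was 0.58 ± 0.26 (SE, n = 2 per group), with an interval from -0.03 to 1.19 and a limma adjusted p of 0.948 (unadjusted p = 0.0589). The 2 arrays of a group differed by 0.49 in untreated and 0.47 in treated cells. It was 0.33 without untreated replicate 2 and 0.82 without untreated replicate 1. No fold is given for KLF9, since neither group was above the limit.

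**Figure D2:**
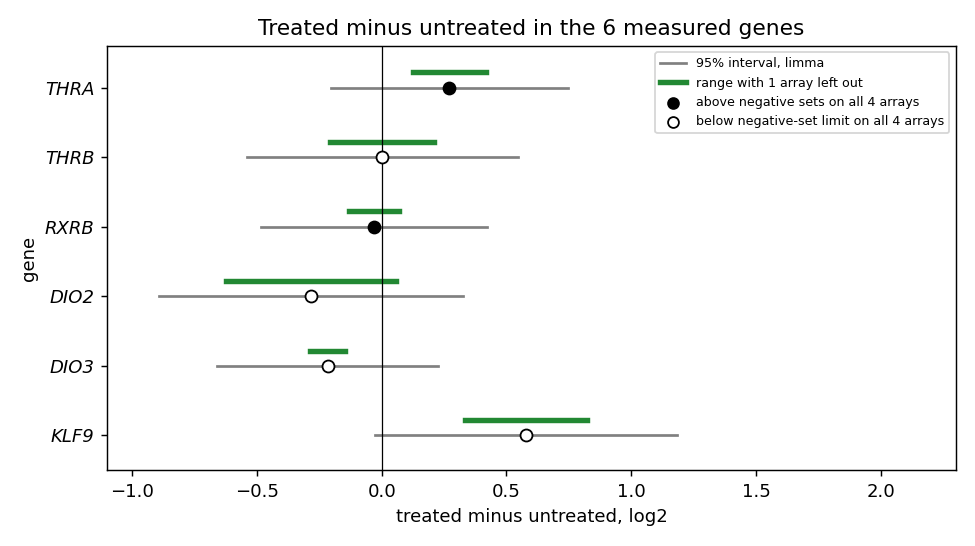
Treated minus untreated log2 difference (x axis) for the 6 measured genes (y axis), with 95% limma intervals in grey and the range with 1 array left out in green. Filled points mark genes above the negative sets on all 4 arrays and open points genes below the limit on all 4; every interval includes 0, and the green ranges of THRB, RXRB and DIO2 cross 0.

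None of the 6 measured genes passed at a limma adjusted p under 0.05, and none had an unadjusted p under 0.05. KLF9, below the limit on every array, had an unadjusted p of 0.0371 with the dim probe sets left out (those under the median), 0.0217 without untreated replicate 1 and 0.0349 without treated replicate 1, with limma adjusted p of 0.958, 0.365 and 1. Across all 21448 probe sets the same test called 0 (0%), and 1089 (5.08%) had an unadjusted p under 0.05. Groups did not overlap for THRA and KLF9, with treated cells higher, and for DIO3, with treated cells lower. That is 2 of 6 and 1 of 6, where 16.4% of all probe sets were higher and 16.8% lower without overlap, so such a pattern is common on these arrays. Among probe sets above background, as THRA was, 20.9% were higher and 11.5% lower without overlap. The median difference of the 6 was -0.015, beside -0.0046 over all probe sets, and with an array left out it ran from -0.14 to 0.14. The median half-width of the 95% intervals over all probe sets above background was 0.47. With 2 against 2, an exact permutation test cannot give a two-sided p under 0.333.

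Promoter sequences of the genes, taken from the RefSeq table for GRCh38.p14, are shown for the short motifs that name their regulators. All 8 symbols matched. In the 250 bases before each listed start, on both strands, the receptor half-site AGGTCA, its direct repeat with a spacer of any 4 bases (DR4, the classical thyroid hormone response element), the TATA box TATAAA, the GC box GGGCGG and the cyclic AMP response element TGACGTCA were searched, and overlapping matches were counted. Neither the half-site nor DR4 was found in any window of the 8 genes. Among all 35116 windows of that length, 12.1% held the half-site and 0.0142% held DR4. A window without a match says only that these letters are not in it.

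The THRA window, on the plus strand, had 87.2% G and C and 8 GC boxes, and 42.6% of all windows held at least 1. The RXRB window that lies nearer the gene body, on the minus strand, had 1 GC box and 61.6% G and C. Stretches of 30 bases are printed 5′ to 3′ for these genes, the ones above background, with the GC box in capitals. The first lies at chr17:40062715-40062744 and the second at chr6:33200672-33200701.
THRA: gagcgGGGCGGggcagaggcggccgagggg
RXRB: aactagacgaggGGGCGGgaactcgcgccg

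The deiodinase genes are shown for their unlike windows, one with a cyclic AMP response element and one rich in GC boxes. A DIO2 window held the element, as 1.65% of all windows did, from 96 bases before the start site, and a TATA box from 31 bases before it. The 30 bases around it are at chr14:80212256-80212285 on the minus strand, with the element in capitals.
DIO2: ctctttctcaaTGACGTCAagatctttacc
The DIO3 window at chr14:101561245-101561494, on the plus strand, had 73.2% G and C, 6 GC boxes and 1 TATA box that began 32 bases before the start. TATA boxes were found in 10.7% of all windows. GC boxes, in either orientation, and the TATA box are in capitals.
DIO3: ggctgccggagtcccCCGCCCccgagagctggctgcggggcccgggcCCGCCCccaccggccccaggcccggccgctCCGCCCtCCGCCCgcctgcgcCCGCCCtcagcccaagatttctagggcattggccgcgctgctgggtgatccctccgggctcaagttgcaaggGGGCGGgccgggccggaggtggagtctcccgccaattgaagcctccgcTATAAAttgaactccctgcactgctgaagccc
Both deiodinase genes were at background on the arrays, so these sequences are descriptions and no expression difference is tied to them.

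The other genes of the pathway were taken from lists by role. Of the 20 nuclear receptor genes, which besides the members held the retinoic acid, vitamin D, peroxisome proliferator-activated and liver X receptors and orphan receptors, 17 were measured. Above the limit on all 4 arrays were 10, and 5 were above it on none. In treated cells 9 of the 17 were higher and 8 lower, with a median difference of 0.0020, and 0 passed the test. NR1D1, which encodes the haem-binding clock repressor REV-ERBα, lies beside THRA on the opposite strand, and the ends of the genes overlap in the RefSeq table. It read 7.60 and 7.51 in untreated and 8.02 and 8.07 in treated cells, above the array limit on 3 of the 4. The groups of NR1D1 did not overlap. Its difference was 0.49 ± 0.18 (SE, n = 2 per group), with an interval from 0.06 to 0.92, and it did not pass (limma adjusted p = 0.948, unadjusted p = 0.0306). Whether the probes of NR1D1 and THRA separate the strands where the genes overlap is not stated by the labels. NR1D2, the paralogue of NR1D1, read 10.87 ± 0.23 in untreated and 10.78 ± 0.11 in treated cells (SD, n = 2 each).

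Among the other receptors, PPARG, the fat cell regulator, read 9.57 and 9.67 in untreated and 9.90 and 9.95 in treated cells, a difference of 0.31 (interval -0.12 to 0.74). RARG, a retinoic acid receptor, had 0.27 (interval -0.17 to 0.70). PPARA, which governs fatty acid oxidation, had -0.28 (interval -0.73 to 0.18) and was above the limit on 2 of the 4 arrays. None of the 3 passed, with limma adjusted p from 0.948 to 0.949.

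The NCOR-type corepressor complex was represented by its other parts, since NCOR1 was not analysed here. Of 13 listed corepressor genes 10 were measured, and 8 were above the limit on all 4 arrays. In treated cells 9 of the 10 were higher and 1 lower, with a median difference of 0.081, but 5 were higher and 5 lower after quantile normalization or cyclic loess, and 4 higher and 6 lower without untreated replicate 2 (median -0.050). None of them passed the test. Over all probe sets 49.1% were higher, and over those above background 58.6%. HDAC3, the deacetylase of the complex, read 10.40 and 10.51 in untreated and 10.90 and 10.62 in treated cells, so the groups did not overlap. Its difference of 0.30 had an interval from -0.16 to 0.77. GPS2, a small scaffold subunit, read 9.90 on both untreated arrays and 10.29 and 10.19 on the treated ones. The difference of GPS2 was 0.34 (interval -0.09 to 0.77, limma adjusted p = 0.948). TBL1X and TBL1XR1, the WD-repeat subunits that clear the corepressor on hormone binding, had 0.0015 (interval -0.47 to 0.47) and 0.040 (interval -0.63 to 0.71), and both turned negative without untreated replicate 2, as they did under cyclic loess or quantile normalization. CCAR2, an inhibitor of the deacetylases SIRT1 and HDAC3, had 0.27 (interval -0.17 to 0.71), and LCOR, a ligand-dependent corepressor, 0.12 (interval -0.46 to 0.70).

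Of 18 coactivator genes 15 were measured, 13 of them above the limit on all 4 arrays. In treated cells 7 were higher and 8 lower (median -0.021), and 0 passed. PPARGC1A, a coactivator of mitochondrial genes, read 8.73 and 7.88 in untreated and 9.14 and 8.93 in treated cells. Its difference of 0.73 (interval 0.03 to 1.43, limma adjusted p = 0.948) fell to 0.31 without untreated replicate 2, the low array, and was 1.16 without untreated replicate 1. NCOA2, a steroid receptor coactivator, had 0.30 (interval -0.18 to 0.77). The Mediator genes MED13 and MED1, whose complex links receptors to RNA polymerase, had -0.25 (interval -0.69 to 0.19) and -0.19 (interval -0.62 to 0.25).

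For transport and binding, 15 of 16 listed genes were measured, and only SLC3A2 and CRYM were above the limit on all 4 arrays. SLC3A2 encodes the heavy chain shared by several amino acid transporters and read 11.43 and 11.80 in untreated and 11.72 and 12.03 in treated cells, with overlapping groups. Its light chain partner SLC7A5, which carries iodothyronines and large neutral amino acids, read 6.87 and 6.89 in untreated and 7.22 and 6.90 in treated cells, above the limit on treated replicate 1 only. SLC16A10, another iodothyronine transporter, read 6.47 and 7.61 in untreated and 7.27 and 6.67 in treated cells. It was above the limit on treated replicate 1 only, and its groups overlapped, with a difference of -0.066 (interval -0.99 to 0.86). CRYM encodes a cytosolic protein that binds triiodothyronine and holds it in the cell. CRYM read 9.39 and 9.44 in untreated and 9.04 and 9.29 in treated cells, lower on both treated arrays, with a difference of -0.25 (interval -0.70 to 0.21, limma adjusted p = 0.961). The plasma carriers TTR, ALB and SERPINA7 were below the limit on all 4 arrays. Over the list 6 were higher and 9 lower (median -0.052), and 0 passed. The 3 with an unadjusted p under 0.05, TTR, LRP2 and SLCO4C1, were all below the limit on every array and are named after their values were seen.

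Deiodination needs selenoprotein synthesis and is limited by degradation of the enzyme. Of 18 such genes, which included conjugating enzymes, 16 were measured, and 8 were above the limit on all 4 arrays. These 8 were the selenocysteine factors SECISBP2, SEPHS2, SEPSECS and EEFSEC, the selenoprotein gene TXNRD1 and the DIO2 turnover genes USP33, WSB1 and MARCHF6. In treated cells 7 of the 16 were higher and 9 lower (median -0.023), and 0 passed. SECISBP2, which lets ribosomes insert selenocysteine, read 9.28 and 9.26 in untreated and 9.23 and 9.32 in treated cells. USP33, a deubiquitinase that rescues DIO2, read 11.59 and 11.55 in untreated and 11.39 and 11.32 in treated cells, a difference of -0.21 (interval -0.64 to 0.22, limma adjusted p = 0.963). TXNRD1, thioredoxin reductase, had 0.15 (interval -0.30 to 0.59), EEFSEC, the selenocysteine elongation factor, 0.16 (interval -0.34 to 0.66), and WSB1, a ubiquitin ligase subunit for DIO2, 0.17 (interval -0.56 to 0.90).

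Genes known to respond to thyroid hormone in other tissues were read as a group as well. Of 22 listed, 21 were measured and 11 were above the limit on all 4 arrays. In treated cells 12 were higher and 9 lower (median 0.034), and 0 passed. Among those below the limit on every array were HR and THRSP, which are hormone-induced in brain and liver, at 5.56 to 5.84 and 3.64 to 4.26. CPT1A, the gatekeeper of mitochondrial fatty acid import, had 0.27 (interval -0.25 to 0.80). SLC2A1, a glucose transporter, had 0.19 (interval -0.24 to 0.62), DDIT4, an inhibitor of mTOR, 0.19 (interval -0.24 to 0.62), and ME1, malic enzyme, 0.20 (interval -0.40 to 0.79).

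**Figure D3:**
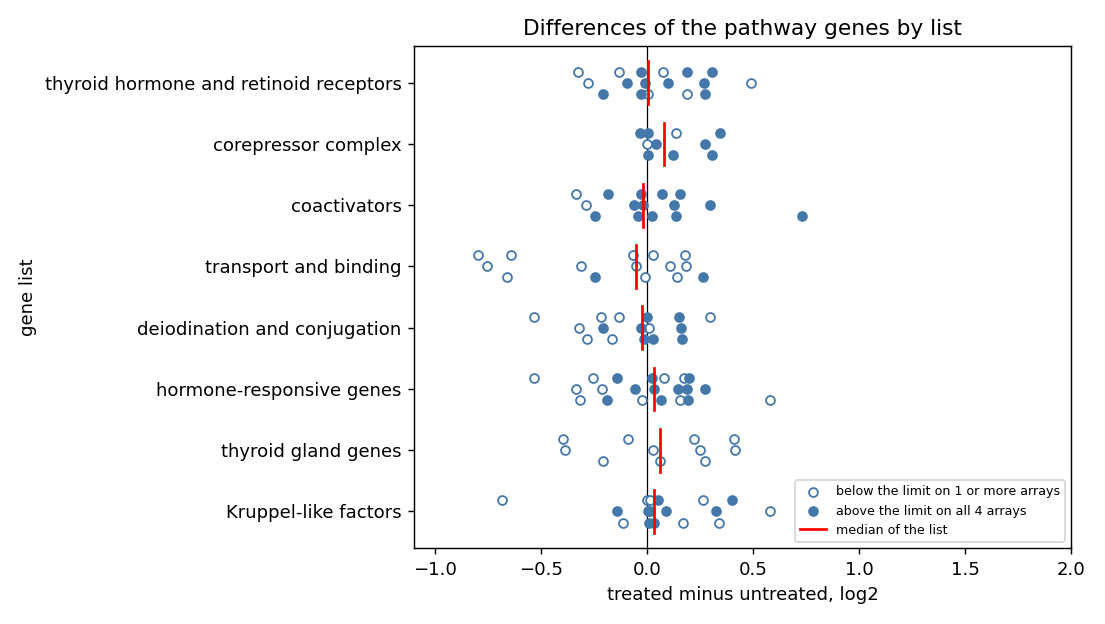
Treated minus untreated log2 difference (x axis) of each measured gene by pathway list (y axis), filled where the gene was above the negative-control limit on all 4 arrays and open otherwise, with the list's median in red. The medians lie between -0.052 (transport and binding) and 0.081 (corepressor complex), and the filled point farthest right is PPARGC1A (0.73).

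The genes whose profiles over the 4 arrays lay nearest to those of THRA and RXRB were found among 8721 named genes above background, by Euclidean distance between log2 values centred on each gene's mean. For THRA they were IFI6 (0.0364), UBXN7 (0.0368) and TIMM13 (0.0373), and for RXRB ATG4B (0.0252). The distances over 4 arrays are given as a description.

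The cells' labelled identity was checked against markers. Of 9 measured sympathetic and neuroblastoma markers 7 were above the limit on all 4 arrays, and TH and DBH, the catecholamine enzymes, were above it on none. Of 8 mesenchymal markers 6 were above it on all 4, VIM among them. All 7 epithelial and endothelial markers were above it on none. Of 5 leukocyte and blood markers PTPRC and CD68 were above it on all 4 arrays, at 12.57 to 12.80 and 10.58 to 10.78, while CD3E, CD14 and HBB were above it on none. The part of these marker levels in the results was not tested. The median log2 expression was 6.49 to 6.51 on the 4 arrays. Untreated replicate 2 stood apart, with a median absolute difference of 0.237 to 0.244 to the others, against 0.193 to 0.208 among the other 3. THRA was 0.35 higher in treated cells without it, and RXRB turned to 0.070.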

How the data were processed

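The deposited values are log2 expression values per probe set, 1 column per array. Per the submitters' processing notes, Transcriptome Analysis Console 4.0.1.36 and the RMA method were used, and the log2 scale was read from the values. RMA quantile-normalizes arrays, so a shift shared by most genes would be largely removed. In the deposited values 58.6% of probe sets above background were still higher in treated cells, against 49.1% of all probe sets. Of 24351 sets, 2903 controls were left out and no filter on dim signal was applied. Names come from the platform annotation, which gives 1 symbol for 17709 probe sets, several for 0 and none for 3739. The brightest probe set stood for a gene. No build is named for the probe sets.

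Groups were compared with limma 3.58.1 (lmFit, then eBayes; R 4.3.3), two-sided, with group as the only term and Benjamini-Hochberg adjustment over all 21448 probe sets. The p-values and intervals rest on the spread between single arrays, which may be technical. That spread is moderated toward a value estimated from all probe sets, with 4.9 prior and 2 residual degrees of freedom. The script was tested on simulated data. Members and lists were chosen with earlier results of these data known. The text names the members, fixed partner genes and, per list, up to 4 genes with the smallest p. The last were taken from genes whose mean exceeds the percentile of the averaged negative sets (6.96), a limit lower than that of each single array. Further genes were named outside this rule, among them TBL1X, TBL1XR1, NR1D2, SECISBP2, HR, THRSP, the plasma carriers, the thyroid gland genes and the markers. Alternatives were 3 normalizations, 2 dim filters, trended and robust variance, array weights, a replicate block, each array left out, a threshold of 0.1 and other background limits.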

Additional observations from a re-analysis of the deposited data

How the results depend on the processing

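None of the alternatives gave a call, over all probe sets or among the measured members. Leaving out each array in turn, the number of probe sets at an unadjusted p under 0.05 ran from 690 to 2444, the most without untreated replicate 1, and adjusted calls were 0 throughout, with a smallest adjusted p of 0.331 there. The lone array of a group is then assumed to vary like the other group. The fit with the replicate number as a block called 0 probe sets and 0 members, with 1079 at an unadjusted p under 0.05. Same-numbered arrays did not deviate together (correlation -0.00085 over all probe sets). With 2 arrays per group this cannot show whether the cultures were paired, and the labels do not say. With 2 arrays per group, array weights could not separate the arrays of a group. Each measured member has 1 probe set, so the mean over probe sets gives the same values. With the mean of the untreated arrays set against the averaged negative sets, 2 members were above the 95th and 99th percentiles and the median of all probe sets, and 3 above the 90th, with KLF9 added. With each array's own percentile, chosen after seeing the data, 2 were above on both untreated arrays at the 90th and 95th and 0 at the 99th. The counts of genes higher and lower in each list were also recomputed after seeing the data, and without untreated replicate 2 the coactivators stood at 4 and 11 and the hormone-responsive genes at 9 and 12. Transport and binding stood at 8 and 7 after cyclic loess, and deiodination and conjugation at 10 and 6 without treated replicate 2.

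For the members and those named genes that were above the limit on at least 1 array and whose difference is given, together with NR1D2, signs turned as follows. After quantile normalization and cyclic loess it was so for TBL1X (-0.044 and -0.038) and TBL1XR1 (-0.00018 and -0.0047). Without untreated replicate 1 it was so for THRB (-0.21), EEFSEC (-0.025), NR1D2 (0.067) and KLF7 (0.076). Without untreated replicate 2 it was so for RXRB (0.070), SLC16A10 (0.50), WSB1 (-0.29), LCOR (-0.16), ME1 (-0.12), TBL1X (-0.15), TBL1XR1 (-0.35), KLF3 (-0.050) and KLF11 (-0.017). Without treated replicate 1 it was so for RXRB (0.032), THRB (-0.16), TBL1X (-0.016) and DIO2 (0.058), and without treated replicate 2 for TBL1XR1 (-0.072), SLC16A10 (0.23) and KLF11 (-0.015). With each array left out in turn, log2 differences ran from -0.21 to 0.21 for THRB, -0.13 to 0.070 for RXRB, -0.63 to 0.058 for DIO2, -0.63 to 0.50 for SLC16A10, -0.29 to 0.62 for WSB1, -0.16 to 0.41 for LCOR, -0.15 to 0.15 for TBL1X, -0.35 to 0.43 for TBL1XR1, -0.25 to 0.067 for NR1D2, -0.12 to 0.51 for ME1, -0.025 to 0.34 for EEFSEC, -0.050 to 0.70 for KLF3, -0.36 to 0.076 for KLF7 and -0.017 to 0.36 for KLF11. THRA ran from 0.12 to 0.42 and KLF9 from 0.33 to 0.82. The cause was not tested. The number of arrays limits every value.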

Other observations

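Thyroid gland genes and the relatives of KLF9 were read beside the pathway. Of 12 thyroid gland genes 11 were measured, among them TG, the hormone's precursor protein, TSHR, the thyrotropin receptor, and SLC5A5, the iodide transporter, and all 11 were below the negative-control limit on every array. Among 18 Krüppel-like and Sp factor genes, 17 were measured and 8 were above the limit on all 4 arrays, namely KLF3, KLF6, KLF7, KLF10, KLF12, KLF16, SP1 and SP3. In treated cells 14 of the 17 were higher and 3 lower, with a median difference of 0.030, beside 49.1% higher over all probe sets. The count includes 8 genes below the limit on every array, whose differences are not read as changes. It was 11 and 6 after quantile normalization or cyclic loess, and 8 and 9 without untreated replicate 2. At a limma adjusted p under 0.05, 0 passed, as did 0 at an unadjusted p under 0.05. KLF6, a growth-regulating factor, read 11.74 and 11.45 in untreated and 12.03 and 11.97 in treated cells, a difference of 0.40 (interval -0.07 to 0.86). KLF3 had 0.33, KLF11 0.17 and KLF7 -0.14, and their groups overlapped.

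DLK1 and RTL1, imprinted neighbours of DIO3 chosen after its values were seen, were below the limit on all 4 arrays, at 5.52 to 5.81 and 5.03 to 5.54.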
